A study of Mus musculus with 6 samples.

Results

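The genes described here are the nuclear Mrpl and Mrps genes, which encode the proteins of the mitochondrial ribosome. They were taken by name, as every gene whose symbol starts with Mrpl or Mrps followed by a number and which is the only gene annotated to a probe set of the array. This gave 76 genes on 156 probe sets, of 18193 genes with a probe set of their own and 45101 probe sets in all. RefSeq lists 78 protein-coding genes with such symbols in the mouse, and the remaining ones, Mrpl30 and Mrpl53, lay only on probe sets that they share with other genes. The cells were AtT-20, an established corticotroph line from a mouse pituitary tumour. In the siDNMT1 group they were given 20 nM of siRNA to Dnmt1, which encodes the maintenance DNA methyltransferase, over 8 days. The siNT group received 20 nM of a non-targeting siRNA on the same schedule. The experiment was carried out 3 times independently, with 1 Affymetrix array per group and repeat, hence 3 siDNMT1 arrays and 3 siNT arrays.

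The mitochondrial ribosome translates the few messenger RNAs of the mitochondrial genome, which encode core subunits of the respiratory chain. Its RNAs come from mitochondrial DNA, whereas all of its proteins are encoded in the nucleus, made in the cytosol and imported. The large subunit forms peptide bonds and holds the exit tunnel, and the small subunit binds the messenger and reads the codons. Many of the proteins have counterparts in the bacterial ribosome, and the others are found only in mitochondria. A few names mislead: the proteins of Mrps30 and Mrps18a sit in the large subunit, and that of Mrps36 is now placed in the 2-oxoglutarate dehydrogenase complex of the citric acid cycle.

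Dnmt1 was lower on all siDNMT1 arrays. On its brightest probe set the scaled signals were 214, 142 and 301 on siDNMT1 arrays 1, 2 and 3, against 541, 701 and 619 on siNT arrays 1, 2 and 3. The knockdown was therefore partial, with 39.6%, 20.2% and 48.6% of the signal of the same-numbered siNT array left. The log2 difference of the brightest probe set was -1.54 (SE 0.24). Its limma adjusted p was 0.151, and 0.0211 with the repeat number as a block. Other Dnmt1 probe sets were at -1.81 (SE 0.26) and -1.75 (SE 0.25). In repeats 1, 2 and 3 the former had 27.8%, 17.2% and 44.6% of the siNT signal left. The latter had 27.6%, 17.7% and 46.2% left. An exact two-sided permutation test gave 0.1, the smallest p that 3 arrays against 3 allow. All 7 corticotroph markers examined were above the brightness filter given below. Their summed signal was 13121 to 20744 on siDNMT1 arrays and 15681 to 20802 on siNT arrays, with Pomc, the precursor of corticotropin, and Tbx19, the corticotroph lineage factor, among them. Of 5 markers of other pituitary cells 4 were above the filter as well. The 5 summed to 109 to 171 on siDNMT1 arrays and to 111 to 212 on siNT arrays. The one below the filter was Fshb, of gonadotrophs, at 1.23 to 1.80 on siDNMT1 arrays and 0.97 to 1.61 on siNT arrays. Fibroblast markers (4 genes, all above the filter) summed to 120 to 150 on siDNMT1 arrays and to 117 to 126 on siNT arrays. Leukocyte markers (3 genes, 2 above the filter) summed to 62.6 to 109 on siDNMT1 arrays and to 53.2 to 153 on siNT arrays.

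Each array was scaled to a common median, and differences are siDNMT1 minus siNT of log2(scaled signal + 5.29). The pseudocount, 5.29, is the 20th percentile of all deposited signals, before scaling. A gene is represented by its brightest probe set unless stated. Probe sets with a mean scaled signal of at least 16.8, the 40th percentile, were tested, which kept 27022 probe sets, 142 of the 156 probe sets of the family and all 76 genes through their brightest one. The family is bright on this array. Its genes had mean signals at a median of the 95.1st percentile of all probe sets, the lowest at the 70.2nd. The median signal of the 76 genes was 665, 673 and 635 on siDNMT1 arrays 1, 2 and 3, against 632, 718 and 653 on siNT arrays 1, 2 and 3. The siDNMT1 medians lay within the range of the siNT medians. The deposited signals of the repeat 2 arrays exceeded those of the other arrays by a median log2 of 0.85 among probe sets of 500 to 1000 and by 0.38 at 4000 to 6000, so bright probe sets span a compressed range. No member reached a deposited signal of 4000 on its brightest probe set.

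No gene of the mitochondrial ribosome passed the threshold between siDNMT1 and siNT cells. By limma (two-sided, Benjamini-Hochberg over all tested probe sets, threshold 0.05) 0 of 76 genes were called, with a background of 0% of tested probe sets. With the repeat number as a block, again 0 of 76 were called, while 0.0851% of all probe sets were. At an unadjusted p under 0.05 there was 1 lower member, Mrpl41, against 2.47% of all tested probe sets and 3.50% of those of equal brightness (the 500 nonmembers nearest to each member in mean log2 signal), and no higher one, against 1.32% and 0.953%. In the paired fit there were 2 lower members, Mrpl41 and Mrpl50, against 5.38% of all and 10.4% of those of equal brightness, and no higher one, against 2.45% and 3.27%. In bulk RNA, less transcript per cell and fewer cells that carry it cannot be told apart.

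The differences were small, and their intervals limit how large they could be. They ran from -0.35 to 0.25 on the log2 scale with a median SE of 0.16. In the fit without the repeat block, the 95% interval of the difference stayed inside 1.5-fold in both directions for 68 of the 76 genes. It reached 1.5-fold on the lower side alone for 4 genes and on the higher side for 4. The median interval reached 0.34 to each side of the difference, a fold of 1.27, so differences below that size are within the error for many members. A p that misses the threshold does not show equal levels.

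**Figure D1:**
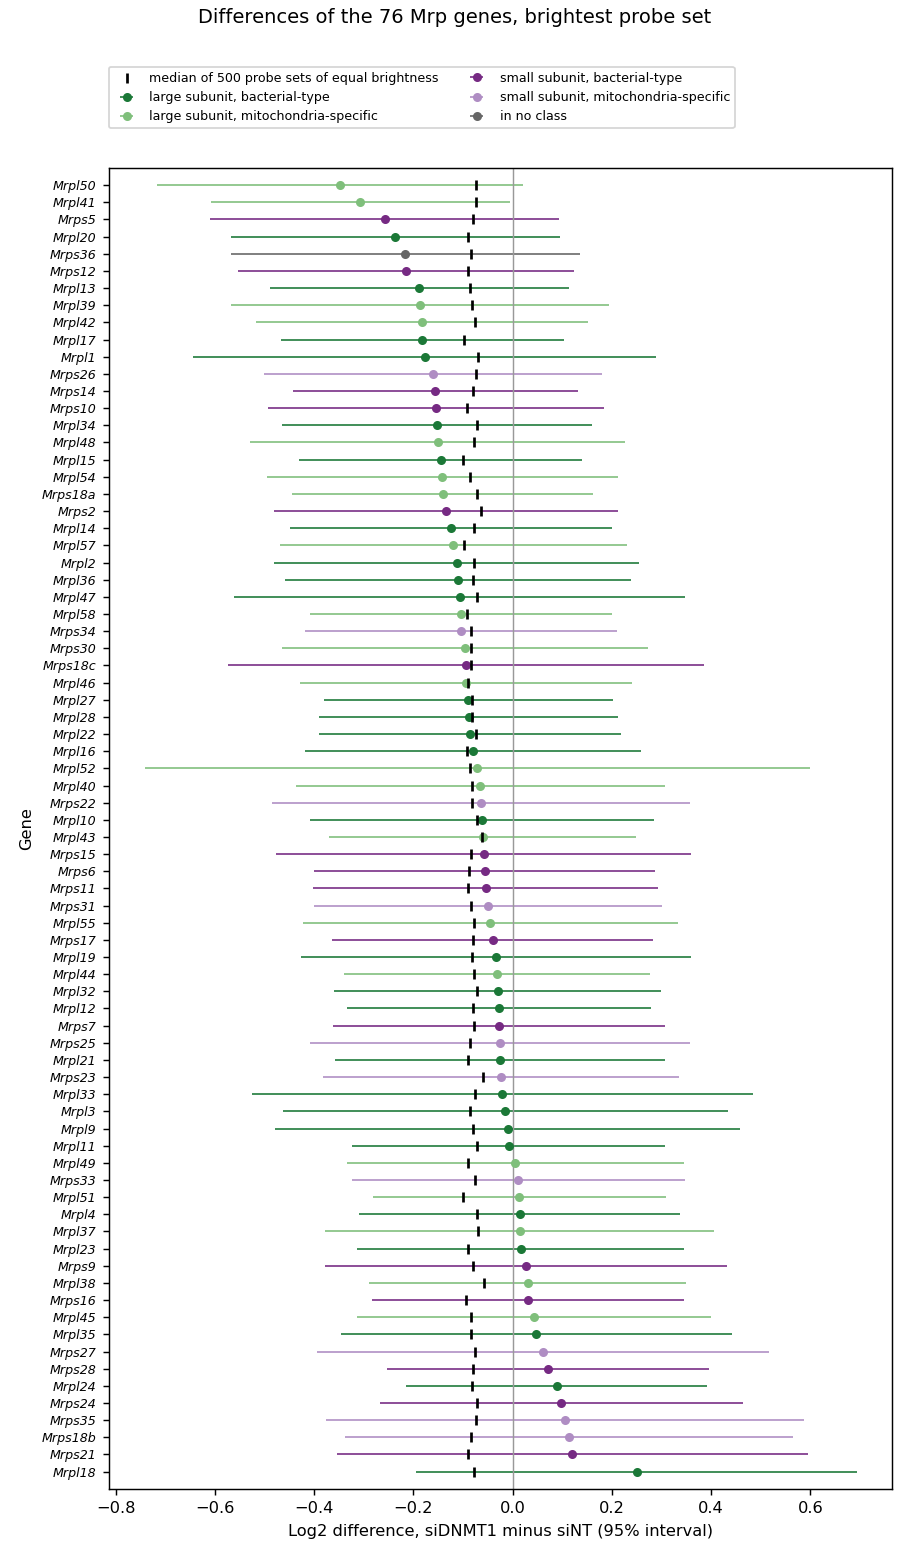
Log2 difference (siDNMT1 minus siNT, horizontal axis) of the brightest probe set of each of the 76 genes (vertical axis, ordered by difference), with its 95% interval, coloured by subunit and origin of the protein. Black ticks mark the median difference of the 500 other probe sets nearest in brightness. Of the 76 intervals, from the fit without the repeat block, 75 include 0, and the black ticks lie between -0.10 and -0.06.

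Most members had lower values in siDNMT1 cells, and so did most probe sets as bright as they are. Of the 76 genes 57 (75%) had a difference below 0, with a median of -0.06. Over all tested probe sets 59.2% were below 0, with a median of -0.06. Among the probe sets of equal brightness 69.9% were below 0. Measured from the median of those probe sets, the members had a median of 0.02, and 33 were below and 43 above it. The number with lower values depended on the scaling: 38 after trimmed mean scaling, and 34 after quantile normalisation. These scalings also moved the median over all probe sets to 0.00 and -0.01. Against equal brightness the numbers below were 33 and 32 under these scalings, whereas without siNT array 1 the number was 20, with a family median of 0.07 from equal brightness.

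The sizes of the differences are given beside those of other probe sets in the same range of signal, without a test. For the 7 members with mean signals under 300 the median size, whatever its sign, was 0.11, against 0.19 for 22412 other probe sets, most of them dimmer than these members. Among the 24 members with mean signals of 300 to 600 it was 0.06, against 0.13 for 2107 other probe sets. For the 30 members at 600 to 1000 it was 0.10, against 0.12 for 948 others, and for the 15 members above 1000 it was 0.09, against 0.12 for 1413 others. In all, 21 of the 76 genes had a larger difference than the median size at their brightness. The SEs of members were smaller too, with medians of 0.17, 0.15 and 0.14 in the 3 ranges from 300 upwards, against 0.18, 0.17 and 0.15 for the others. The median differences of members in these 3 ranges were -0.05, -0.07 and -0.08, against -0.08, -0.07 and -0.10 for the others.

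**Figure D2:**
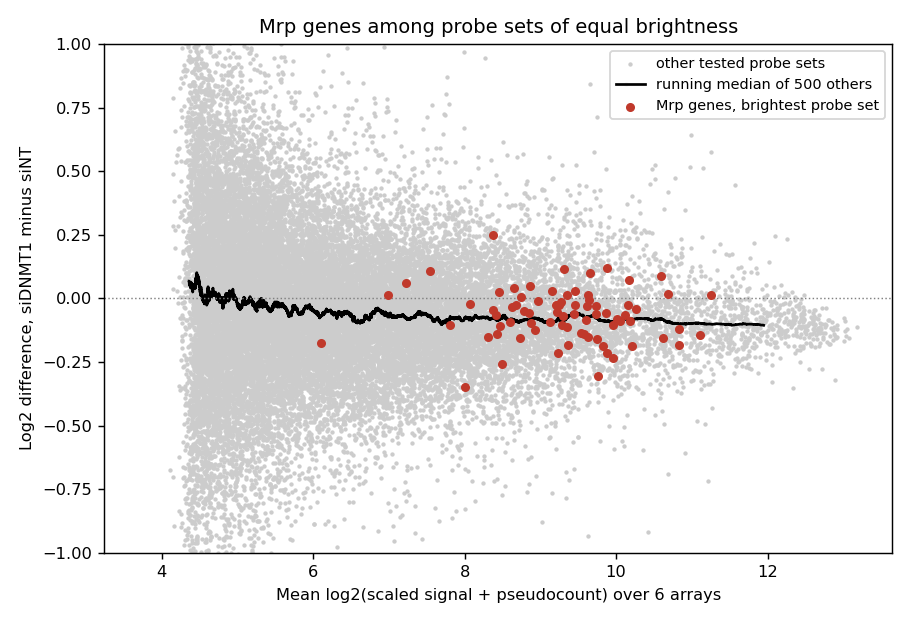
Log2 difference (siDNMT1 minus siNT, vertical axis) against mean log2(scaled signal + pseudocount) over the 6 arrays (horizontal axis), with the 76 genes in red, other tested probe sets in grey and their running median over 500 probe sets in black. The red points lie on both sides of the black line, 33 below and 43 above the median of their 500 nearest neighbours. Another 341 grey probe sets beyond a log2 difference of 1 in either direction are not drawn.

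The members with the lowest values belong to both subunits. Mrpl50, which encodes a large-subunit protein found only in mitochondria, had signals of 248, 201 and 221 in siDNMT1 cells, against 264, 301 and 291 in siNT cells (repeats 1, 2 and 3 in each group). All siDNMT1 values were below all siNT values, with means of 223 ± 23.8 in siDNMT1 cells and 285 ± 19.2 in siNT cells (SD, n = 3 each). Its difference was -0.35 (SE 0.17, limma adjusted p = 0.99968). The second Mrpl50 probe set, with a mean signal of 46.6, was at -0.08 (SE 0.27), and its groups overlapped. Mrpl41 encodes another large-subunit protein specific to mitochondria, described in human cells as a partner of Bcl-2. It had signals of 778, 733 and 810 in siDNMT1 cells, against 980, 958 and 934 in siNT cells. The groups did not overlap, with means of 773 ± 38.8 in siDNMT1 cells and 957 ± 22.7 in siNT cells (SD, n = 3 each), so that 80.8% of the siNT signal was left. The difference was -0.31 (SE 0.14, limma adjusted p = 0.99968), and its 95% interval, -0.61 to -0.01, was the one interval of the 76 that did not include 0. The second tested Mrpl41 probe set gave -0.32 (SE 0.16), also with no overlap between the groups.

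Mrps5, a small-subunit protein with a bacterial counterpart at the entry of the messenger, had signals of 307, 362 and 308 in siDNMT1 cells, against 365, 417 and 387 in siNT cells. The groups did not overlap on this probe set, where the difference was -0.26 (SE 0.16). The 4 dimmer Mrps5 probe sets disagreed in sign, at 0.02, -0.21, -0.04 and 0.23. Mrpl20, needed early in the assembly of the bacterial large subunit, was at -0.24 (SE 0.15), and Mrps12, of the decoding centre, at -0.21 (SE 0.15). In both genes siDNMT1 and siNT signals overlapped. Mrps12 was at -0.12, -0.55 and 0.03 in repeats 1, 2 and 3, with the lowest value in repeat 2. Mrps36, the gene named for the ribosome but placed elsewhere, was at -0.22 (SE 0.16), with -0.01, -0.41 and -0.23 in the repeats.

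A further 5 genes had siDNMT1 signals that were all below the siNT signals. Mrpl13, with a bacterial counterpart in the large subunit, averaged 849 ± 53.5 in siDNMT1 cells and 967 ± 19.1 in siNT cells (SD, n = 3 each), a difference of -0.19 (SE 0.14). Its other tested probe sets, with mean signals of 521 and 258, were at 0.04 (SE 0.18) and 0.20 (SE 0.24). On both of them the groups overlapped. Mrpl17, whose bacterial counterpart lies by the exit tunnel, had signals of 1864, 1628 and 1639 in siDNMT1 cells, against 1953, 1961 and 1897 in siNT cells, at -0.18 (SE 0.13). Mrps14 was at -0.16 (SE 0.13) and Mrps10 at -0.15 (SE 0.15), both small-subunit proteins with bacterial counterparts, and Mrps18a at -0.14 (SE 0.14). With these 8 of the 76 genes (10.5%) had groups that did not overlap with siDNMT1 lower, against 5.78% of all tested probe sets and 8.33% of those of equal brightness. Groups apart with siDNMT1 higher were found for 0 members, against 2.96% of all and 1.92% of those of equal brightness.

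**Figure D3:**
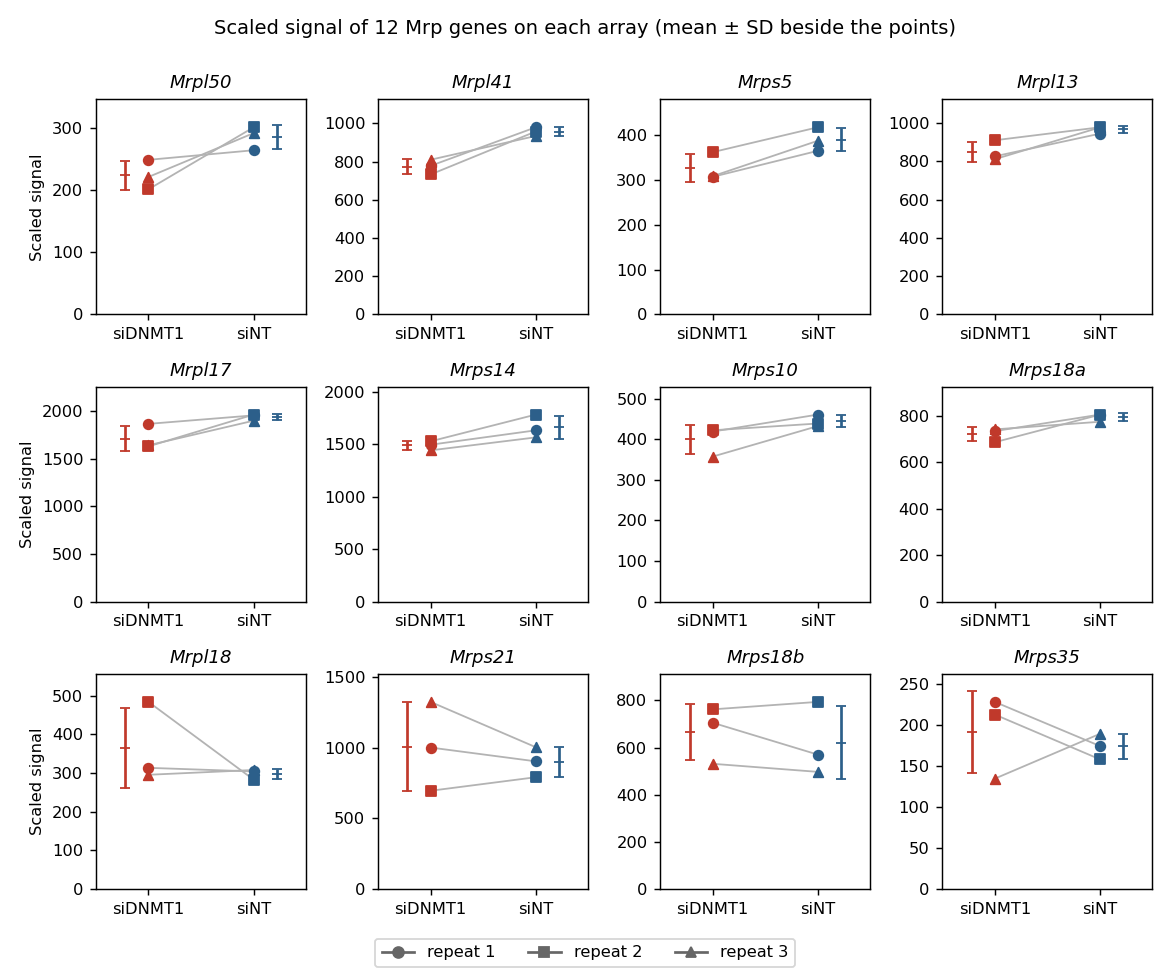
Scaled signal (vertical axis, from 0) on the siDNMT1 arrays (red, left) and the siNT arrays (blue, right) for the 8 genes whose groups do not overlap and the 4 genes with the highest differences; grey lines join arrays of the same repeat and bars give mean ± SD (n = 3 each). The first 8 genes differ by at most 0.35 on the log2 scale, and the siDNMT1 signal of Mrpl18 stands apart in repeat 2 alone, at 484.

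At the other end, 5 of the 6 genes with the highest differences had a negative one when a single array or repeat was left out. Mrpl18, the counterpart of bacterial L18, had signals of 313, 484 and 295 in siDNMT1 cells, against 304, 283 and 308 in siNT cells. Its difference was 0.25 (SE 0.20), and -0.01 without repeat 2, where the siDNMT1 signal stood above all other arrays. Mrps21 had signals of 1003, 696 and 1326 in siDNMT1 cells, against 905, 792 and 1005 in siNT cells. It was at 0.12 (SE 0.22), with overlapping groups, and -0.10 without siDNMT1 array 3. Mrps18b and Mrps35, small-subunit proteins specific to mitochondria, were at 0.11 (SE 0.21) and 0.11 (SE 0.22). Mrps35 was at 0.38, 0.42 and -0.48 in repeats 1, 2 and 3. It was at -0.03 without siDNMT1 array 1, as was Mrps18b without siNT array 3. Mrps24, the counterpart of bacterial S3, was at 0.10 (SE 0.17), and -0.03 without siNT array 3. Another Mrps24 probe set, with a mean signal of 689, was at -0.01 (SE 0.16) with all arrays. Mrpl24 was at 0.09 (SE 0.14), and it was the one member with a positive difference in all 3 repeats, at 0.23, 0.003 and 0.04.

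The letters of the promoters were examined because Dnmt1 acts on CpG sites. RefSeq promoter sequences (GRCm38.p6, 300 bases from 250 before to 50 after the gene start) were found for 67 of the 76 genes. Methylation itself was not measured on these arrays. The 250 bases before the start are shown for the 3 genes with the lowest differences between siDNMT1 and siNT cells, Mrpl41, Mrpl50 and Mrps5, and for the one with the highest, Mrpl18. They lie at chr2:24975099-24975348 (minus strand), chr4:49521084-49521333 (minus strand), chr2:127587176-127587425 (plus strand) and chr17:12916092-12916341 (minus strand) of GRCm38.p6, and capitals mark the CpG sites.
Mrpl41: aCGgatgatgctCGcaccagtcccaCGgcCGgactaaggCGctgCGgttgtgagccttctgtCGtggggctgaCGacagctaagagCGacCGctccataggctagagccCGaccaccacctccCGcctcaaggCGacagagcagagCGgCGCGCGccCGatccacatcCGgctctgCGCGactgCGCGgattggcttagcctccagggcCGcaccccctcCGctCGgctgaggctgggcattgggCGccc
Mrpl50: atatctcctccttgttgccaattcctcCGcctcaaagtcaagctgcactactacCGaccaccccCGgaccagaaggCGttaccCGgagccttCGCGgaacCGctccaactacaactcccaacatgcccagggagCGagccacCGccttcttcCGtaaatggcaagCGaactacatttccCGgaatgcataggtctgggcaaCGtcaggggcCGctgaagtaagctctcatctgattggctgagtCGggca
Mrps5: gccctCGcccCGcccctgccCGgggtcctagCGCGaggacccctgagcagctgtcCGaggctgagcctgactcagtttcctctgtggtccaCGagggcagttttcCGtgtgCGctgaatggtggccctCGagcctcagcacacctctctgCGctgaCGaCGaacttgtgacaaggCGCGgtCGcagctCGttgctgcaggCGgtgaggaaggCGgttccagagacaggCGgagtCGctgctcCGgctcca
Mrpl18: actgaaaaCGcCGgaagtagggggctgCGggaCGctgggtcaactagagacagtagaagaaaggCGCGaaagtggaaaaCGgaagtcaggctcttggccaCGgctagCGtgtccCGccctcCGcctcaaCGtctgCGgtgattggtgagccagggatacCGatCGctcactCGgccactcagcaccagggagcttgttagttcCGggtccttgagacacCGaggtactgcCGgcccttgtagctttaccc
These stretches hold 27 CpG sites for Mrpl41, 16 for Mrpl50, 22 for Mrps5 and 19 for Mrpl18.

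CpG-rich promoters were the rule in the family. The ratio of observed to expected CpG in the 300 bases had a median of 0.818 over the 67 genes, from 0.521 to 1.12, against a median of 0.573 over 17425 other protein-coding genes. A ratio of at least 0.6, a usual bound for CpG islands, was reached by 62 of the 67 (92.5%), against 48.2% of the other genes. These others include genes that were not tested on the arrays, whereas all members were tested. Of the other tested genes 6965 reached the ratio and 3291 did not. The shares of others that follow are also over all 17425, tested or not. Letters known as binding motifs of factors that drive nuclear genes of mitochondria were also frequent. The ETS core CCGGAAG, read by GABP among others, stood in 24 of the 67 promoters (35.8%), against 11.8% of the others. The YY1 letters AAGATGGC stood in 12 (17.9%), against 3.17% of the others, and the NRF1 letters, GCGCA followed by any base and GCGC, also in 12 (17.9%), against 6.55%. At least 1 of the 3 stood in 40 promoters (19.4% of the others had one). By contrast CACGTG, the E-box read by Myc, was in 5 (7.46%, against 7.90%) and the TATA letters TATAAA in 4 (5.97%, against 13.4%). Both strands were searched, and no matches of different motifs overlapped in a member. Overlap between matches of the same motif was not examined, and a match of letters is not a bound site. The ETS, NRF1 and E-box letters themselves contain CpG, whereas those of YY1 and TATA do not. Motif shares among the CpG-rich promoters of other genes were not computed. In 22 of the 67 promoters (32.8%) another protein-coding gene started on the opposite strand within 1000 bases upstream, against 7.42% of the others. One such pair joins 2 members, Mrpl46 and Mrps11, whose starts are 42 bases apart.

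The differences were set beside the promoter features as a description, without a test. The 62 members with a CpG ratio of at least 0.6 had a median difference of -0.06, against -0.08 for 6965 other tested genes with such promoters, and the 5 members below that ratio had one of -0.14 (4 of 5 lower), against -0.03 for 3291 other tested genes below it. Of the 40 members with at least 1 of the ETS, NRF1 or YY1 letters 27 had lower values, with a median of -0.03, and of the 27 without them 25 had lower values, with a median of -0.09. The 22 members with a divergent neighbour had a median of -0.08, and the 45 members without one had a median of -0.06. The 21 neighbours with a tested probe set had a median of -0.08, and they include the members Mrpl46 and Mrps11. Mrpl18, the highest member at 0.25, starts 238 bases from Tcp1, a chaperonin subunit gene, which was at -0.11.

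The order of the members differed between repeats. In repeats 1, 2 and 3 the median difference of the 76 genes was -0.02, -0.11 and -0.07, against medians of 0.02, -0.11 and -0.07 over all tested probe sets. Measured from probe sets of equal brightness the family stood at -0.04, 0.05 and 0.02, with 45, 26 and 34 of the 76 genes below. Repeat 2, with the least Dnmt1 left, had the lowest median of the family before this comparison and the fewest members below equal brightness after it. Its arrays also had the highest deposited signals, with trimmed means of 140 in both groups. The part of either trait was not tested. Across the 76 genes the differences of repeats 1 and 2 correlated at a Pearson r of 0.06, those of repeats 1 and 3 at 0.25 and those of repeats 2 and 3 at -0.32, where the genes share the 6 arrays and their scaling. Over all tested probe sets these values were 0.08, 0.03 and 0.05. The same sign in both repeats was found for 36, 51 and 39 of the 76 genes. In all 3 repeats 24 genes (31.6%) had lower values, against 19.2% of all tested probe sets and 27.8% of those of equal brightness. The one gene with higher values in all repeats made 1.32%, against 10.1% and 8.46%.

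In several genes dimmer probe sets differed in sign or size from the brightest one. Of the 40 genes with several tested probe sets, 22 had the same sign on all. The widest gap was in Mrpl54, a large-subunit protein specific to mitochondria, whose probe sets were at -0.14 (SE 0.16) and 0.63 (SE 0.43), the second with a mean signal of 29.4 and 8.07 on siNT array 3, not far above the pseudocount. Mrpl3, the counterpart of bacterial L3 near the peptidyl transferase centre, was at -0.01 (SE 0.20) and -0.02 (SE 0.17) on its 2 bright probe sets. Its dim probe set, with signals of 32.6, 15.5 and 32.5 in siDNMT1 cells, against 51.7, 43.6 and 44.0 in siNT cells, was at -0.74 (SE 0.30, limma adjusted p = 0.99968), and its groups did not overlap. The 4 bright Mrpl15 probe sets were at -0.06 to -0.15, a dim one at -0.34 (SE 0.31) and another at 0.34 (SE 0.42). Mrpl48 was at -0.15 (SE 0.17), -0.13 (SE 0.16) and, on its dim probe set, -0.62 (SE 0.47). Which part of the transcript each probe set reads was not analysed here.

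By role, the medians of the classes lay between -0.09 and -0.02. Of the 28 large-subunit proteins with bacterial counterparts 23 had lower values, with a median of -0.07, and of the 21 large-subunit proteins specific to mitochondria 16, with a median of -0.09. In the small subunit 11 of 16 proteins with bacterial counterparts and 6 of 10 specific ones had lower values, with medians of -0.06 and -0.02. Against equal brightness the large subunit stood at 0.00 (24 of 49 below) and the small subunit at 0.04 (8 of 26 below). In repeats 1, 2 and 3 the large subunit stood at -0.06, 0.05 and 0.02 from equal brightness, and the small subunit at 0.01, 0.11 and 0.02. Without that comparison the medians were -0.05, -0.11 and -0.07 for the large subunit and 0.04, -0.06 and -0.07 for the small one. The small subunit was thus higher in repeats 1 and 2, with both alike in repeat 3 to 2 decimals, and the gap was not tested. Ribosomal proteins under other names all had lower values (4 of 4 tested). Dap3, of the small subunit, was at -0.14 (SE 0.14), and Ptcd3 and Chchd1 of the same subunit at -0.16 (SE 0.23) and -0.09 (SE 0.13). Gadd45gip1, of the large subunit, was at -0.11 (SE 0.17).

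Genes that work with the mitochondrial ribosome did not pass the threshold in either fit either. Of 11 tested translation factors and messenger-binding proteins 10 had lower values, with a median difference of -0.12, and of -0.04 from equal brightness. Mtif2, the initiation factor, was at -0.32 (SE 0.23), Gfm2, which splits the ribosome after termination, at -0.28 (SE 0.24), and the messenger-binding partners Slirp and Lrpprc at -0.16 (SE 0.16) and -0.23 (SE 0.28). Of 19 genes that charge mitochondrial tRNAs 13 had lower values, with a median of -0.03. These are aminoacyl-tRNA synthetases, with the amidotransferase subunits Qrsl1, Gatb and Gatc. Their leading genes were Nars2 at -0.45 (SE 0.21), Rars2 at -0.44 (SE 0.23), Pars2 at -0.35 (SE 0.23) and Fars2 at -0.25 (SE 0.20). The 24 genes of ribosome assembly and ribosomal RNA modification had 14 lower and 10 higher values. Rbfa, an assembly factor of the small subunit, was at -0.34 (SE 0.17) and Mtg1, a GTPase of large-subunit assembly, at -0.27 (SE 0.16). Mrm1, which methylates the large ribosomal RNA, was at 0.29 (SE 0.18) and Trub2, a pseudouridine synthase, at 0.26 (SE 0.19).

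Mitochondrial transcription and replication had 7 lower values among 12 genes. Among the lower ones were the tRNA-processing gene Elac2 at -0.28 (SE 0.17), the helicase gene Twnk at -0.27 (SE 0.23) and the transcription factor gene Tfb2m at -0.22 (SE 0.26), whereas the polymerase gene Polg was at 0.13 (SE 0.18). The 10 nuclear regulators were divided, 5 lower and 5 higher. Myc, which drives many ribosomal genes, was at 0.57 (SE 0.20, limma adjusted p = 0.99968), with 0.47, 0.54 and 0.70 in the repeats. The coactivator genes Ppargc1b and Ppargc1a were at -0.66 (SE 0.30) and -0.39 (SE 0.27), and Gabpa, a subunit of GABP, at -0.38 (SE 0.34).

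The 2 largest sets of related genes are shown for comparison. The respiratory chain is taken here together with the ATP synthase genes, such as Atp5b. The mitochondrial ribosome makes its core, and its other subunits are nuclear. In this set 67 of 71 genes had lower values (94.4%), with a median of -0.14, and 53 were below probe sets of equal brightness. They stood at -0.08, -0.08 and -0.03 from equal brightness in repeats 1, 2 and 3, against -0.04, 0.05 and 0.02 for the Mrp genes. None of the 71 passed the limma threshold in either fit. At an unadjusted limma p under 0.05, 1 of the 71 was lower without the block, against 2.47% of all tested probe sets. At the same bound 17 were lower in the paired fit, against 5.38%. The median signal of the 71 genes was 2695, against 654 for the Mrp genes and 62.9 for all tested probe sets. That paired share was 10.4% at the brightness of the Mrp genes, and it was not computed at the brightness of the respiratory chain genes. Ndufb5, of complex I, at -0.25 (SE 0.12), shares a start region with Mrpl47, at -0.11 (SE 0.21), their starts being 308 bases apart. Among 41 tested cytosolic ribosomal protein genes 37 had lower values, with a median of -0.08, and 14 were below equal brightness, with a median of 0.02 from it. Their median signal was 4758, so both sets lie further into the compressed range than the Mrp genes, and its part in their differences was not tested. The differences between the sets were not tested either.

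**Figure D4:**
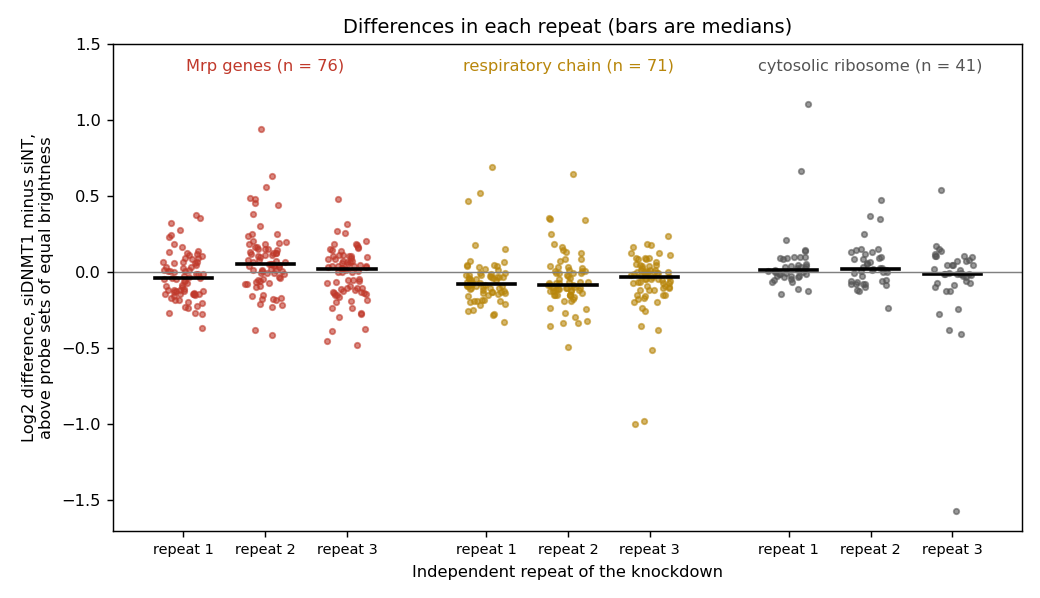
Log2 difference (siDNMT1 minus siNT) above the median of the 500 probe sets nearest in brightness (vertical axis) in each independent repeat (horizontal axis) for the 76 Mrp genes, 71 respiratory chain genes and 41 cytosolic ribosomal protein genes; each point is a gene and bars are medians. The bars of the Mrp genes are at -0.04, 0.05 and 0.02, and those of the respiratory chain are below 0 in all 3 repeats.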

How the data were processed

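Biotin-labelled total RNA was measured on 6 arrays, 3 per group, with groups and repeat numbers taken from the labels. The deposited values are 1 linear intensity per probe set and array, made with GCOS, the Affymetrix software, per the submitters' processing notes. Software settings were not given in the sources used here, nor detection calls. Trimmed means (2%) differed by up to 2.00 times, so each array was scaled to a common median log2 value. Probe sets were named from the platform annotation where it gives 1 symbol (34945 probe sets, with 932 carrying several and 9160 none, controls apart). Gene symbols and promoters came from RefSeq GRCm38.p6. Groups were compared with limma 3.58.1 in R 4.3.3 (lmFit, eBayes with a trend), which was tested on simulated data.

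The repeat numbers pair the arrays: after subtracting group means, arrays with the same number correlated at 0.173, 0.231 and 0.257, and those with different numbers at -0.179 to -0.028. The comparison without the block was the main one. Members and lists were chosen with earlier results of these data known. Genes were named by rule: any past the threshold, up to 12 with groups apart, the 6 lowest and 6 highest, the 4 whose probe sets differed most, and up to 4 per other list by p; others named were chosen after their values were seen. The number of arrays limits precision. The p-values measure the spread between independent repeats. Alternatives were scaling, pseudocount, filter, trend, probe set choice, window of equal brightness, repeat block and left-out arrays.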

Additional observations from a re-analysis of the deposited data

How the results depend on the processing

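No Mrp gene passed the threshold under any alternative run. Over all probe sets the count of calls was 0, and it was 23 with the replicate block, 3 with the replicate block and trimmed mean scaling, 1 with trimmed mean scaling, 1 with quantile normalisation, 2 without scaling and 1 with the stricter filter. Leaving out arrays or repeats gave 0 to 4, the 4 without siDNMT1 array 3. The Dnmt1 difference of -1.54 passed with the replicate block (limma adjusted p = 0.0211) and without siDNMT1 array 3 (-1.79, limma adjusted p = 0.0438), and ran from -1.79 to -1.17 over left-out arrays. The block changed no call among the Mrp genes.

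The median of the family was -0.06, and 0.00078 with trimmed mean scaling (also with the block) and 0.0093 with quantile normalisation, where 34 genes were lower. Against equal brightness the median was 0.02. It was 0.01 to 0.02 over the settings that keep all arrays, and -0.026 to 0.0675 over left-out arrays. The number of genes below equal brightness, 33, ran from 20, without siNT array 1, to 43, without siNT array 2 or without repeat 2. The causes were not tested.

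Of 436 values of the 21 Mrp genes named by rule, 415 kept their sign. Mrpl3, at -0.01, turned to 0.0472 with trimmed mean scaling, with or without the block, to 0.0533 with quantile normalisation and to 0.0145 without scaling, and ran from -0.22 to 0.13 over left-out arrays. Averaging all probe sets turned Mrpl13 to 0.0176 and Mrpl54 to 0.25. Without _s_at, _x_at and _a_at probe sets Mrpl15 was at 0.34, from a dim probe set. Over left-out arrays Mrpl18 ran from -0.00749 to 0.40, Mrpl48 from -0.26 to 0.0095, Mrps18b from -0.0306 to 0.30, Mrps21 from -0.10 to 0.36, Mrps24 from -0.0273 to 0.23 and Mrps35 from -0.0493 to 0.40.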
